A study of Danio rerio with 12 samples.

Results

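Fli1, fli1rs, erg, ets1, tal1 and lmo2 are 6 transcription factor genes of endothelium and of the progenitors it shares with blood, of 8793 named genes on the array. Their probe sets were taken by gene symbol from the annotation of the array, which gave 8 of the 15502 probe sets tested: 2 each for fli1 and ets1 and 1 each for fli1rs, erg, tal1 and lmo2. The 2 probe sets of a gene are called A and B, A being the one with the higher mean signal.

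RNA was measured in endothelial cells sorted by flow cytometry from zebrafish embryos that carry flk1:GFP, at 48 hours after fertilization. The promoter of the transgene is that of flk1, now named kdrl, a VEGF receptor gene of endothelium, so the sort collects cells in which that promoter is or was active. There were 3 groups with 4 biological replicates each, on 12 one-colour Affymetrix arrays. One group was control, and the others came from embryos that had received 4 ng of miR-126 MO-1 or of miR-126 MO-2 by injection as single cells. These are different morpholinos, antisense oligonucleotides that each block processing of the miR-126 precursor. Control replicate 1 is labelled as uninjected, the other 3 controls carry no word on injection, and no control oligonucleotide is named. A difference from control therefore cannot be told apart from an effect of injection. The study asks which genes of endothelial cells are regulated by miR-126.

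ETS factors are DNA-binding proteins that recognise a core GGAA and occupy enhancers of most endothelial genes. Fli1 is among the earliest of them in zebrafish, where it marks angioblasts and later all vessels, and fli1rs, formerly fli1b, is its duplicate. Erg is the related factor that sustains endothelial identity and cell junctions, and ets1 acts in angiogenesis. Below, ETS genes and ETS probe sets mean those of these members only, unless other ETS factors are named. Tal1, a basic helix-loop-helix protein also known as scl, and lmo2, a LIM-only protein that does not bind DNA itself, work in one complex with GATA, E-protein and Ldb1 partners. That complex specifies haemangioblasts, the shared progenitors of blood and endothelium, and tal1 is later kept in blood cells. In the RefSeq annotation of the GRCz12tu assembly, fli1 and ets1 are neighbouring protein-coding genes, as are erg and ets2. Fli1rs lies next to etsrp, the ETS factor also called etv2. Genome positions are not part of the array data and are not given.

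Values are log2 signals after Robust Multi-array Average, a method that corrects background and normalizes across arrays. Array medians ran from 6.80 to 6.86 log2, with lower quartiles at 5.39 to 5.61 and upper ones at 8.12 to 8.24. Probe sets differ in affinity, so levels were not compared between genes, and the number of arrays limits the precision. Endothelial signal was compared between the arrays with 8 measured endothelial surface and signalling genes, kdrl among them, of 28 listed. The series holds no unsorted or GFP-negative sample, so the purity of the sorts was not measured. Log2 signal of kdrl ran from 7.46 to 8.51 in the 9 arrays numbered 1 to 3 and from 5.82 to 6.36 in the 3 arrays numbered 4. The arrays numbered 4 thus stood apart from the rest of the series, and the results on the members are also given without them.

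Fli1 had its lowest signal in the array numbered 4 of every group. Log2 signal of probe set A in replicates 1 to 4 was 9.14, 8.88, 9.07 and 8.12 for control, 8.96, 9.14, 9.61 and 7.74 for MO-1, and 9.91, 9.02, 9.16 and 7.99 for MO-2. Probe set B read 8.63, 9.05, 8.56 and 7.62 for control, 8.76, 8.26, 9.06 and 7.43 for MO-1, and 8.59, 8.94, 9.11 and 7.38 for MO-2. Both probe sets had the 3 arrays numbered 4 below the other 9 arrays, and the 3 groups overlapped. The probe sets did not follow each other in detail: MO-2 replicate 1 was the highest array in A and lay near the middle in B. Their profiles, each centred on its own mean, had a root mean square difference of 0.38 log2 over the 12 arrays.

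Fli1rs, the duplicate of fli1, had its lowest signal in the same arrays, over a smaller range. Its log2 signal in replicates 1 to 4 was 6.16, 6.24, 6.27 and 5.86 for control, 6.12, 6.58, 7.04 and 5.79 for MO-1, and 6.44, 6.53, 6.61 and 5.66 for MO-2. The arrays numbered 4 were again the 3 lowest, and MO-1 replicate 3 was the highest. The centred profiles of fli1rs and fli1 probe set A had a root mean square difference of 0.37.

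Erg separated the arrays numbered 4 from the others too. Its log2 signal in replicates 1 to 4 was 8.84, 8.71, 8.30 and 7.72 for control, 8.61, 9.12, 8.83 and 7.48 for MO-1, and 9.04, 9.33, 9.10 and 7.51 for MO-2. The arrays numbered 4 lay between 7.48 and 7.72, and no other array was below 8.30. Among replicates 1 to 3, the MO-2 arrays were each above the control array and the MO-1 array with the same number. The same held for ets1 probe set B.

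Ets1 also had its lowest signal in the arrays numbered 4, with less separation. Log2 signal of probe set A in replicates 1 to 4 was 9.13, 9.33, 8.78 and 8.66 for control, 9.35, 8.80, 9.33 and 8.33 for MO-1, and 9.25, 9.62, 9.80 and 8.03 for MO-2. Probe set B read 8.54, 8.44, 8.39 and 8.12 for control, 8.59, 8.56, 8.65 and 8.14 for MO-1, and 8.90, 8.86, 9.06 and 7.60 for MO-2. In probe set A control replicate 4 was close to control replicate 3, whereas MO-2 replicate 4 lay far below the other MO-2 arrays. In both probe sets MO-2 held the highest and the lowest array of the 12.

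Tal1 did not share this order. Its log2 signal in replicates 1 to 4 was 6.35, 5.79, 6.48 and 6.97 for control, 5.97, 6.84, 7.41 and 6.15 for MO-1, and 7.27, 6.14, 6.65 and 6.63 for MO-2. Replicate 4 was the highest control array, the second lowest array of MO-1 and an inner array of MO-2. Arrays with the same number lay up to 1.31 log2 apart, as in MO-1 and MO-2 replicate 1.

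Lmo2, the partner of tal1, had replicate 4 at different places in control and in the morpholino groups. Its log2 signal in replicates 1 to 4 was 5.35, 5.62, 5.53 and 5.96 for control, 5.55, 6.26, 6.63 and 4.87 for MO-1, and 6.12, 6.27, 5.96 and 5.48 for MO-2. Replicate 4 was the highest control array, as for tal1. It was the lowest array of each morpholino group, as for fli1, fli1rs, erg and ets1. The lmo2 signal was below the array median of all probe sets on every array.

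**Figure D1:**
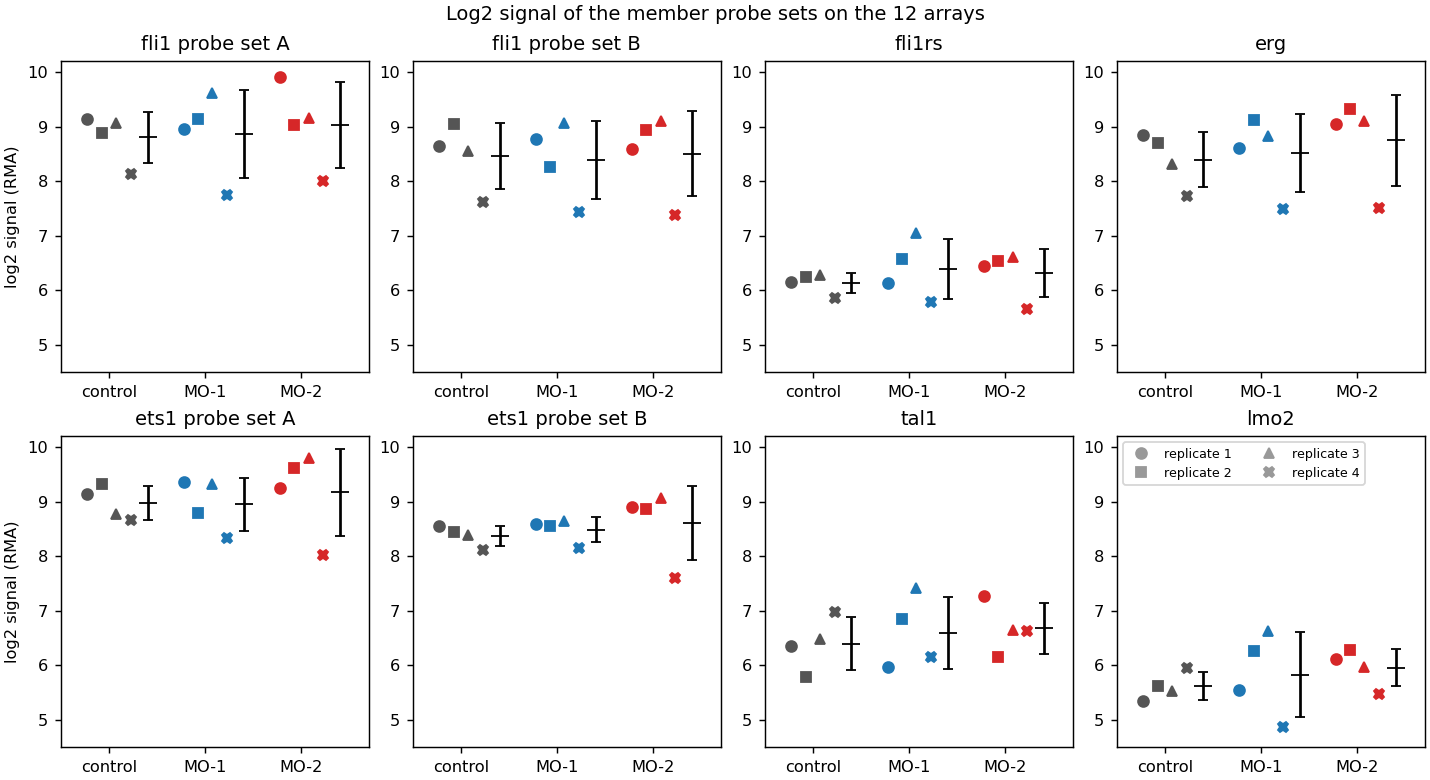
Log2 signal of the 8 member probe sets on the 12 arrays, by group. Symbols mark the replicate number, and the bar beside each group is its mean with SD (n = 4). The crosses, replicate 4, are the lowest in every group for the 6 ETS probe sets and not for tal1.

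Whether arrays with the same replicate number share a level was tested with limma on all 15502 probe sets, as an F test of the replicate number after group means, with Benjamini-Hochberg adjustment over all of them. Fli1, fli1rs and erg differed between replicate numbers, which covers 4 of the 8 member probe sets. Of all probe sets 12.1% did so, 1873 in number. Ets1 was just short of the threshold of 0.05, and tal1 and lmo2 were far from it. The adjusted p was 0.00189 for erg, 0.00603 and 0.00376 for fli1 probe sets A and B, and 0.0307 for fli1rs. For ets1 it was 0.0603 and 0.0635, for lmo2 0.402 and for tal1 0.655.

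The mean of the 3 arrays numbered 4 minus the mean of the other 9 was -1.31 log2 for erg, -1.26 and -1.29 for fli1 and -0.68 for fli1rs. It was -0.93 and -0.72 for ets1, -0.49 for lmo2 and 0.04 for tal1, against a median of -0.01 over all probe sets. For the 6 ETS probe sets all 3 arrays numbered 4 lay below the other 9, which was so for 3.76% of all probe sets. It was so for neither tal1 nor lmo2. That fli1, fli1rs, erg and ets1 differ from the tal1-lmo2 pair in this respect was not tested. The other ETS factors that were measured did not fall as a list. Of these 14, from 23 listed, 10 were higher in the arrays numbered 4, with a median shift of 0.09. Of all probe sets 48.5% were higher there. Etv2, elk3 and fev were listed and not measured.

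Replicate number accounted for most of the variation of fli1, fli1rs, erg and ets1, and group for little. Its share of the sum of squares over the 12 arrays was 82.5% and 86.7% for fli1, 73.8% for fli1rs, 85.8% for erg and 63.9% and 66.5% for ets1. It was 18.5% for tal1 and 31.0% for lmo2, where the median of all probe sets was 42.5%. Group took between 0.71% for fli1 probe set B and 9.16% for lmo2, and the median of all probe sets was 8.86%. Group means of lmo2 (5.61 to 5.96) and tal1 (6.40 to 6.68) lay below the array medians, as did those of fli1rs (6.13 to 6.38). The part of low signal in these shares was not tested.

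**Figure D2:**
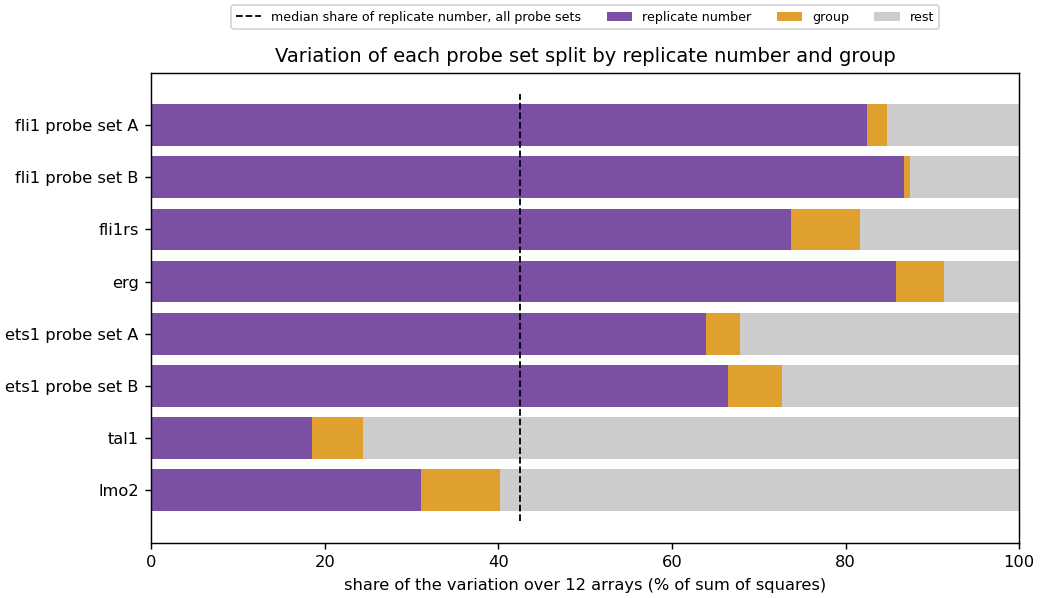
Share of each probe set's variation over 12 arrays, in percent of the sum of squares, that goes with replicate number, with group and with neither. The dashed line is the median share of replicate number over all probe sets, 42.5%; the 6 ETS probe sets lie above it and tal1 and lmo2 below.

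The split rests on the arrays numbered 4. Without these 3 arrays 0 member probe sets were called by limma's F test, the lowest adjusted p of a member was 0.399, and 516 probe sets of the array were called. Without MO-1 or MO-2 replicate 4 alone, erg and both fli1 probe sets were still called, at adjusted p from 0.0165 to 0.045, and fli1rs was not, at 0.119 and 0.126. Fli1rs also lost its call when control replicate 1 or 2, MO-1 replicate 3, or MO-2 replicate 2 or 3 was left out, at adjusted p from 0.0528 to 0.0585. Ets1 probe set A was called without MO-1 replicate 2, control replicate 3 or control replicate 4, at 0.0383, 0.0217 and 0.0399. With a trended and robust variance both ets1 probe sets were called, at 0.0415 and 0.0483.

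Other markers were also called by replicate number, as were 12.1% of all probe sets. The 8 endothelial surface and signalling genes were called by replicate number in 8 of 8 cases, with a median shift of -1.66 log2 in the arrays numbered 4. Plvapb, which encodes a fenestral diaphragm protein, was at -2.30, and the aquaporin gene aqp8a.1 was at -1.95. The mean of these genes, each centred over the 12 arrays, was -1.43 to -0.87 in the arrays numbered 4 and -0.12 to 0.63 in the others. All 19 measured skeletal muscle genes were called, with a median shift of 1.13 and scores of 0.59 to 1.23 against -1.66 to 0.73. The muscle score was also high in the arrays numbered 2, at 0.52 for control, 0.72 for MO-1 and 0.73 for MO-2, unlike the fall of the endothelial genes. Of 15 epidermal genes 9 were called, with a median shift of 0.27 and scores of 0.34 to 0.49 against -0.55 to 0.36. Of 13 erythroid genes 1 was called, with a median shift of -0.27 and scores of -0.66 to 0.04 against -1.09 to 0.78. In the arrays numbered 4, 10 of them were lower and 3 higher. The called gene was hbbe3, at -4.01 (adjusted p = 0.00156 by the F test). Of 14 myeloid genes 4 were called, of 19 neural genes 4 and of 5 mural cell genes 2. Whether these small counts and the erythroid one differ from the share of all probe sets was not tested. The 3′ minus 5′ signal of the GAPDH control probe sets, a sign of RNA quality, was 1.76 to 2.09 in the arrays numbered 4 and 0.78 to 1.82 in the others. The arrays numbered 3 were close to those numbered 4, at 1.82 for control, 1.68 for MO-1 and 1.79 for MO-2. For acta1 the 3′ minus 5′ signal was 3.49 to 3.88 in the arrays numbered 4 and 2.50 to 3.46 in the others. The part of cell mixture and RNA quality in the ETS signal was not tested, and in a sorted bulk sample fewer endothelial cells and less RNA per cell cannot be told apart.

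**Figure D3:**
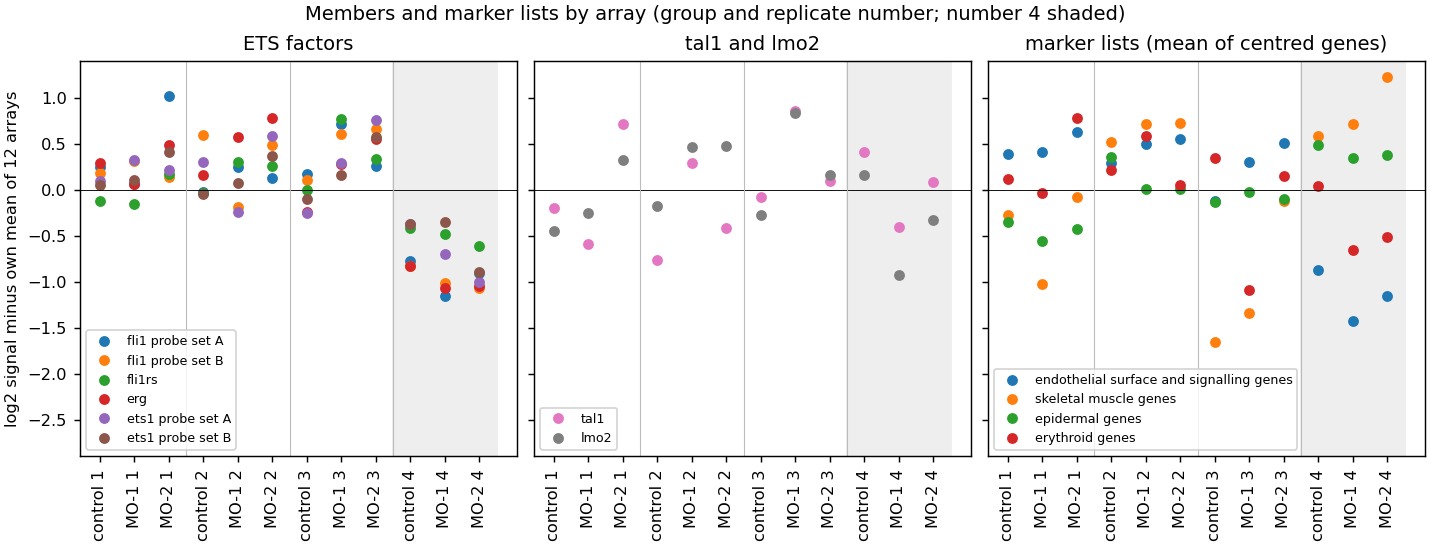
Log2 signal minus the mean of the same probe set over 12 arrays, for the 6 ETS probe sets, for tal1 and lmo2, and for the mean of 4 marker lists; arrays are ordered by replicate number and then group. In the shaded arrays numbered 4 the ETS points and the endothelial score are negative, and the muscle and epidermal scores are positive. The muscle score is also positive in the arrays numbered 2. The epidermal score there is 0.36 for control and close to 0 for MO-1 (0.003) and MO-2 (0.009).

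Signals of the members were also set against the endothelial score of the same array. Subtracting the score lowered the SD over the 12 arrays from 0.65 to 0.19 log2 for erg and from 0.64 to 0.32 and 0.33 for fli1. The SD of ets1 went from 0.53 to 0.39 in probe set A and from 0.40 to 0.44 in B. It was larger after subtraction for fli1rs, from 0.40 to 0.49, for lmo2, from 0.49 to 0.59, and for tal1, from 0.51 to 0.86. After subtraction the arrays numbered 4 differed from the others by 0.23 log2 for erg and by 1.58 for tal1. By this measure erg and fli1 kept closest to the other endothelial genes over all 12 arrays, and tal1 kept least. These SDs include the arrays numbered 4 and were not computed without them. Among the arrays numbered 1 to 3, erg ran from 8.30 to 9.33 before subtraction and from 8.20 to 8.77 after it. Fli1 ran from 8.88 to 9.91 and from 8.47 to 9.31 in probe set A, and from 8.26 to 9.11 and from 7.77 to 8.76 in B. Tal1 ran from 5.79 to 7.41 and from 5.49 to 7.10. The score was subtracted in full, so a probe set with smaller changes can gain SD even where it follows the same order. Fli1rs and ets1 probe set B gained SD although the arrays numbered 4 were their lowest.

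Named genes with the most similar profiles were found by the root mean square difference of centred log2 signal over the 12 arrays, among 8787 other genes. For erg they were dab2, an endocytic adaptor gene, at 0.14, inka1b, an inhibitor of Pak4 kinase, at 0.15 and ptprb, an endothelial receptor phosphatase gene, at 0.18. For fli1 they were plxnd1, a semaphorin receptor gene of endothelium, at 0.23, pald1a at 0.24 and podxl, a sialomucin gene, at 0.25. For fli1rs they were hmgxb4b at 0.13, coro1a, an actin regulator of leukocytes, at 0.14 and zgc:85789 at 0.14. For ets1 they were tmem108 at 0.18, gins2, a subunit of the replicative helicase, at 0.19 and asap1b at 0.20. For lmo2 they were snx16, a sorting nexin gene, at 0.21, laptm5, a lysosomal protein gene of haematopoietic cells, at 0.22 and mrps23, a mitochondrial ribosomal protein gene, at 0.23. For tal1 the nearest gene, tmem39a, was at 0.24, followed by ube2q1 at 0.29 and tor1 at 0.30. Between members the smallest difference was 0.28, for fli1rs and lmo2, whose brightest probe sets also had the smallest spread, and tal1 and lmo2 were at 0.41. The largest, 0.76, was for erg and tal1. The difference is not scaled by spread, and no chance level was set for the nearest of 8787 genes, so these genes are not read as regulated together.

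MO-1 was compared with control to ask what the first oligonucleotide changes. No member probe set passed limma's test, 0 of 8 at an adjusted p under 0.05 and 0 of 8 at an unadjusted p under 0.05. Of all probe sets 0% were called, and 172 had an unadjusted p under 0.05. The groups overlapped for all 8 members, and 0.968% of all probe sets had groups that did not overlap. Of the 8 member probe sets 6 had a higher mean with MO-1, with a median change of 0.12 log2, where 54.7% of all probe sets were higher and their median was 0.02. Of the marker lists, 12 of 13 erythroid genes had a lower mean with MO-1 (median change -0.56), as had 13 of 15 epidermal (-0.14), 14 of 19 neural (-0.22) and 12 of 19 muscle genes (-0.11), and 5 of 8 endothelial surface and signalling genes were higher (0.10), with 0 called by limma. The erythroid score ran from 0.04 to 0.34 in control and from -1.09 to 0.59 with MO-1. The part of these lists in the values of the members was not tested.

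Fli1 probe sets A and B had changes of 0.06 and -0.08 with MO-1. Log2 signal of A averaged 8.80 ± 0.47 in control arrays and 8.86 ± 0.80 in MO-1 arrays (SD, n = 4 each). The 95% interval of its change ran from -0.86 to 0.97, and that of B from -0.996 to 0.83. Fli1rs was at 6.13 ± 0.19 in control and 6.38 ± 0.55 with MO-1, a change of 0.25 with an interval from -0.32 to 0.82. Erg was at 8.39 ± 0.50 and 8.51 ± 0.72, a change of 0.12 with an interval from -0.79 to 1.03. Ets1 had changes of -0.02 (-0.77 to 0.73) in probe set A and 0.11 (-0.47 to 0.69) in B. Tal1 was at 6.40 ± 0.48 and 6.59 ± 0.66, a change of 0.20 with an interval from -0.52 to 0.92. Lmo2 was at 5.61 ± 0.25 and 5.83 ± 0.78, a change of 0.21 with an interval from -0.47 to 0.90. The adjusted p of limma was 1 for each of them after rounding.

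The same question was put to MO-2. All 8 member probe sets had a higher mean with MO-2, with changes from 0.04 to 0.35 log2 and a median of 0.23, and 0 of 8 passed limma's test. Of all probe sets 51.9% were higher, with a median change of 0.01. None of the 8 had an unadjusted p under 0.05, which 345 of all probe sets had, and 0% of all probe sets were called. The groups overlapped for all 8 members, and 1.84% of all probe sets had groups that did not overlap. All 19 muscle genes also had a higher mean with MO-2 (median change 0.61), 6 of 8 endothelial surface and signalling genes were higher (0.21) and 16 of 19 neural genes were lower (-0.31), with 0 called by limma. The score ranged from -1.66 to 0.59 in control and from -0.12 to 1.23 with MO-2 for muscle, from -0.87 to 0.39 and from -1.16 to 0.63 for the endothelial genes, and from -0.24 to 0.86 and from -0.45 to 0.10 for neural genes. Their part in the values of the members was not tested.

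Erg was at 8.39 ± 0.50 in control and 8.74 ± 0.83 with MO-2 (SD, n = 4 each), a difference of 0.35 with 95% limits of -0.56 and 1.26. Single arrays moved this value: it was 0.13 without control replicate 4 and 0.76 without MO-2 replicate 4. Without control replicate 4, tal1 and lmo2 were at 0.47 and 0.46, above erg, and without control replicate 2 tal1 was at 0.076. Lmo2 was at 5.96 ± 0.35 with MO-2, a change of 0.34 with an interval from -0.34 to 1.03. Tal1 was at 6.68 ± 0.46, a change of 0.28 with an interval from -0.44 to 1.00. Ets1 had changes of 0.20 (-0.55 to 0.95) in probe set A and 0.23 (-0.35 to 0.81) in B, fli1 of 0.22 (-0.70 to 1.13) in A and 0.04 (-0.87 to 0.95) in B, and fli1rs of 0.18 (-0.39 to 0.75). Each interval holds 0, and the upper ends run from 0.75 to 1.26. The intervals given for MO-1 and MO-2 come from the fit without replicate number. The comparisons of MO-1 and MO-2 share their control arrays.

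**Figure D4:**
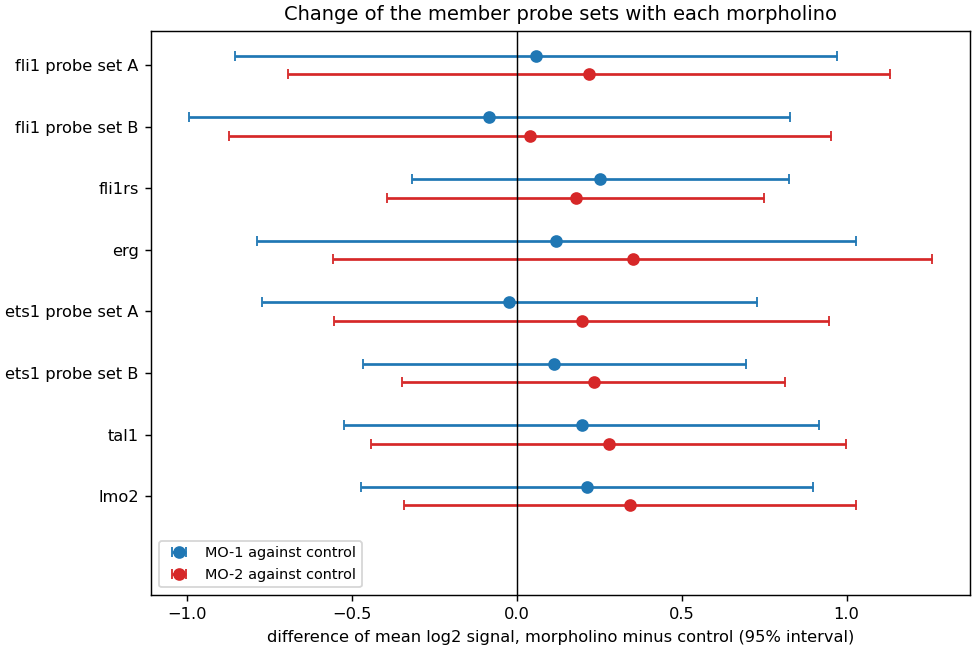
Difference of mean log2 signal, morpholino minus control, for the 8 member probe sets with MO-1 and MO-2. Bars are the 95% intervals of limma from the fit without replicate number. All intervals hold 0.

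With the replicate number as a block, 0 members were called in either comparison and the smallest adjusted p was 0.835, for erg with MO-2. The unadjusted p of erg was 0.06 with the block and 0.419 without it. The SE of its change with MO-2 was 0.17 with the block and 0.42 without it. For fli1 probe set A the SE was 0.20 and 0.42, for tal1 0.31 and 0.33, and for lmo2 0.28 and 0.32. The intervals given above are thus wider than the block would give, above all for erg and fli1. Without the arrays numbered 4 7 of the 8 probe sets had a higher mean with MO-1 and all 8 with MO-2, and 0 members passed limma's test (adjusted p = 0.922 or higher). Lmo2 was then at 0.65 with MO-1 and 0.62 with MO-2, tal1 at 0.53 and 0.48, erg at 0.24 and 0.54, and fli1rs at 0.36 and 0.30. Fli1 probe set A was at 0.21 and 0.33, B at -0.05 and 0.13, and ets1 probe set A at 0.08 and 0.47 and B at 0.14 and 0.48. The arrays numbered 4 were known to be low in endothelial genes, so these values are no independent support for a rise.

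Differences within a replicate number had opposite signs in different numbers, except for ets1 probe set B with MO-1. That probe set was higher than control in 4 of 4 pairs, by 0.03 to 0.26. No share of all probe sets was set beside this count, so it is not read as a result. With MO-2, all 8 member probe sets were lower than control in the pair numbered 4, by -0.13 to -0.63, and all 8 were higher in the pair numbered 3, by 0.08 to 1.02. In the pairs numbered 1 and 2, 7 of 8 were higher. With MO-1, 7 of 8 were lower in the pair numbered 4, all 8 were higher in the pair numbered 3, and 4 and 6 were higher in the pairs numbered 1 and 2. Among all probe sets, 53.7% were lower with MO-2 in the pair numbered 4 and 43.9% with MO-1. In the pair numbered 3, 51.3% of all were higher with MO-2 and 54.9% with MO-1. In the pairs numbered 1 and 2, 50.6% and 51.4% were higher with MO-2, and 50.8% and 48.3% with MO-1. The endothelial score moved the same way: in the arrays numbered 4 it was -0.87 for the control, -1.43 for MO-1 and -1.16 for MO-2, and in those numbered 3 it was -0.12, 0.31 and 0.51. Its part in the signs of the members was not tested.

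**Figure D5:**
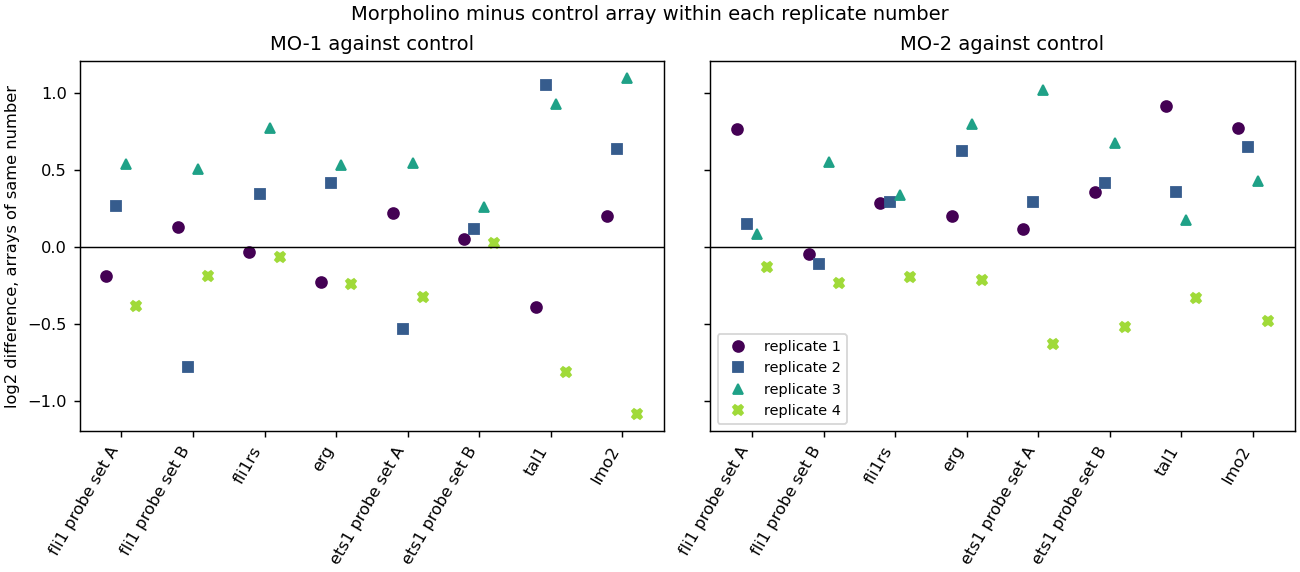
Log2 signal of the morpholino array minus that of the control array with the same replicate number, for each member probe set. Points of replicate 3 are above 0 for every probe set, and those of replicate 4 are below 0 for all but ets1 probe set B with MO-1, which is at 0.03.

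Both morpholinos together differed from control by -0.02 to 0.28 log2 over the members, with 7 of 8 higher and 0 of 8 called by limma. Of all probe sets 0% were called, and 293 had an unadjusted p under 0.05. Lmo2 was at 0.28 (SE 0.27), tal1 at 0.24 (SE 0.29) and erg at 0.24 (SE 0.36). Without the arrays numbered 4 the members were at 0.04 to 0.63, and 0 were called (adjusted p = 0.981 or higher by limma). MO-2 was compared directly with MO-1 to ask whether the oligonucleotides differ. The members differed by -0.07 to 0.23 log2, with 0 of 8 called, 0% of all probe sets called and 87 of all at an unadjusted p under 0.05. Erg was higher with MO-2 in 4 of 4 pairs of the same number, by 0.43, 0.21, 0.27 and 0.02, and its change of 0.23 had an interval from -0.68 to 1.14. The other member probe sets were higher in 1 to 3 of 4 pairs. No share of all probe sets was set beside this count, so the 4 of 4 of erg is not read as a result. Without the arrays numbered 4 the members differed by -0.06 to 0.40, with 0 called by limma.

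Other factors of the same circuits were counted from lists of known genes. Of 29 measured endothelial and blood transcription factors besides the members, 12 were higher and 17 lower with MO-1, and again 12 and 17 with MO-2, with 0 called by limma in either. Their median changes were -0.03 in both comparisons. The largest with MO-1 were hhex, a homeobox factor of endothelium and liver, at 0.41 (SE 0.40) and prox1a, a factor of lymphatic endothelium, at -0.38 (SE 0.22). With MO-2 they were foxc1a, a forkhead factor of vascular development, at 0.46 (SE 0.30) and runx3 at -0.38 (SE 0.39). By replicate number 9 of these 29 were called, against 12.1% of all probe sets. Their median shift in the arrays numbered 4 was -0.13. Hhex was at -1.20 (adjusted p = 0.0103 by the F test) and runx3 at 1.03 (adjusted p = 0.00263).

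The other ETS family factors had shifts of both signs in the arrays numbered 4. Of 14 measured, 3 were called by replicate number, against 12.1% of all probe sets. In the arrays numbered 4, 10 were higher, with a median shift of 0.09, where 48.5% of all probe sets were higher. Elf1, an ETS factor of blood and endothelium, was at 0.99 (adjusted p = 0.00433 by the F test), and spi1b, the myeloid factor also called PU.1, was at -0.55 (adjusted p = 0.0628). Limma called 0 of 14 with MO-1 or MO-2. With MO-1, etv5b, a target of ERK signalling, was at -0.34 (SE 0.19) and etv4 at -0.30 (SE 0.26). With MO-2, ets2 was at -0.30 (SE 0.19) and spi1b at 0.25 (SE 0.36).

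Partners of the tal1-lmo2 complex were named for their role after values were seen. Of 6 looked for, 5 were measured: gata1a, gata2a, ldb1a, ldb1b and tcf3a, an E protein. Gata2a, the GATA factor of endothelium and blood stem cells, was called by replicate number, with a shift of -0.72 in the arrays numbered 4 (adjusted p = 0.0448 by the F test). Of the 5 genes 1 was thus called, against 12.1% of all probe sets. Gata1a, the erythroid GATA factor, was at -0.13 (adjusted p = 0.327). The changes of the 5 genes with MO-1 and MO-2 lay between -0.14 and 0.30, and none was called by limma. Spred1, described as a target of miR-126, was at 0.07 (SE 0.15) with MO-1 and 0.18 (SE 0.15) with MO-2, and was not called.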

How the data were processed

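The authors deposited 1 log2 signal per probe set and array, computed with RMA per the submitters' processing notes. The sources used here do not name the RMA version, and base 2 was inferred from the range of values. RNA was extracted with Trizol and amplified with a NuGen kit, per the labels' protocols. Of 15617 probe sets, 115 control probe sets were left out, and 15502 were tested with no filter on signal. The platform annotation gave 1 symbol to 10795 probe sets, several to 135 and none to 4572. Symbols were checked by Entrez number, and 1 changed. List genes were represented by their brightest probe set, and 136 of 206 list entries were measured.

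Limma 3.58.1 in R 4.3.3 was fitted to all 12 arrays (lmFit, eBayes; two-sided; Benjamini-Hochberg over 15502 probe sets; threshold 0.05). The F test of replicate number had group as a term. The scripts were tested on simulated data, with planted changes far larger than those of the members with either morpholino and noise independent between arrays. That test checks the code and not whether changes as small as those of the members can be found. Alternatives were a replicate block, leaving out arrays, repeated quantile normalization, a limit on dim probe sets, a trended robust variance, an endothelial covariate and the mean of a gene's probe sets. Members, lists and tests were chosen with earlier results of these data known. Named were all members, the 2 list genes with the largest change, the 3 nearest profiles, kdrl and spred1.

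The replicate numbers come from the sample titles. Centred on group means, the 12 same-numbered pairs of arrays correlated across probe sets at 0.223 to 0.626, so the number was also used as a block. The 36 pairs that differ in both group and number had a median of -0.172. Centring on group means pushes these correlations to the negative side, so that median is no separate evidence.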

Additional observations from a re-analysis of the deposited data

Results flagged for a closer look

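In 2 of 24 sets of 4 arrays (8 probe sets in 3 groups) the lowest array lay far from the other 3 by Dixon's test, where chance gives about 1 in 20. Both were MO-2 replicate 4: erg at 7.51, with a gap of 0.841 of the range of the group, and ets1 probe set B at 7.60, with a gap of 0.862. In the same array the endothelial score was -1.16. The 24 sets share arrays and are not independent, and the arrays numbered 4 were already known to be low. The count of 2 is therefore no new finding.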

How the results depend on the processing

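No setting brought a member past the threshold in a morpholino comparison: 0 of 588 member tests under other settings were called, and the lowest adjusted p of limma was 0.835. With a replicate block the counts over all probe sets stayed at 0 in the 4 comparisons, with 445, 947, 849 and 354 at an unadjusted p under 0.05 for MO-1, MO-2, both together and MO-2 against MO-1. The block changed no other call. Without the 3 arrays numbered 4, 1 probe set was called with MO-2 and 1 with both together. It was that of pierce1 in both, at 1.49 (adjusted p = 0.0247 by limma) and 1.25 (adjusted p = 0.0324), chosen after its values were seen.

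Sizes and signs of the changes depended on single arrays. When each array was left out in turn, the change with MO-1 ran from -0.19 to 0.43 and from -0.36 to 0.23 for fli1 probe sets A and B, from -0.10 to 0.46 for erg, from -0.16 to 0.18 for ets1 probe set A, from -0.076 to 0.41 for tal1 and from -0.054 to 0.53 for lmo2. With MO-2 it ran from -0.079 to 0.56 and from -0.24 to 0.41 for fli1 A and B and from -0.011 to 0.58 for ets1 A, and without a change of sign from 0.13 to 0.76 for erg, from 0.076 to 0.47 for tal1, from 0.24 to 0.50 for lmo2, from 0.080 to 0.40 for fli1rs and from 0.080 to 0.57 for ets1 B. With both together it ran from -0.089 to 0.33 and from -0.30 to 0.17 for fli1 A and B and from -0.019 to 0.28 for ets1 A. Between MO-2 and MO-1 it ran from -0.21 to 0.50 and from -0.19 to 0.50 for fli1 A and B, from -0.27 to 0.15 for fli1rs, from -0.11 to 0.64 for erg, from -0.033 to 0.46 for ets1 B, from -0.13 to 0.35 for tal1 and from -0.19 to 0.40 for lmo2.

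Other settings turned these signs. Without the arrays numbered 4, ets1 A with MO-1 was at 0.078, fli1 B with both together at 0.042, and tal1 and lmo2 between MO-2 and MO-1 at -0.051 and -0.029. With quantile normalization repeated, ets1 A with MO-1 was at 0.010. With the endothelial score as a covariate, fli1 B was at -0.13 with MO-2 and at -0.025 between MO-2 and MO-1. With the mean of a gene's probe sets, fli1 was at -0.013 and ets1 at 0.045 with MO-1, each with the sign of probe set B. Fli1 was at 0.058 with both together, with the sign of A. In these cases A and B had opposite signs, so their mean had to differ in sign from 1 of them. The cause of the other turns was not tested.

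The replicate test called 1081 to 1922 probe sets when single arrays were left out, and 3 to 5 members. It called 516 and 0 members without the arrays numbered 4. In settings chosen after seeing the data, 1114 and 4 members were called without the arrays numbered 1, 1523 and 4 without those numbered 2, and 1587 and 5 without those numbered 3. The limit on dim probe sets leaves out lmo2. The number of arrays limits what could be detected.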
